A study of Mus musculus with 12 samples.

Results

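The peaks described here are those of 12 peak lists that lay on sequences of the mouse GRCm39 assembly other than chromosomes 1 to 19, X, Y and the mitochondrial genome. They numbered 650 of 160204 peaks, or 0.406%. The members were chosen by sequence name alone, with no measured value. Peaks of different libraries that overlapped by 1 base or more were merged into 111 regions. The mitochondrial genome carried 0 peaks in these lists.

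All libraries came from c-Kit+ hematopoietic stem and progenitor cells of mouse bone marrow, made to express BAP1 by retrovirus, with either an ASXL1 construct or an empty vector; genotype is labelled mock, and the labels used here give no strain, age or number of animals. The 4 ChIP-seq libraries were labelled BAP1 or ASXL1, each with ASXL1 (1-590), a truncated protein of residues 1 to 590, and with its 10RA mutant. Another 8 libraries profiled H2AK119ub, histone H2A with a single ubiquitin on a lysine of its tail, by CUT&RUN in a 1-590 set (1-590, 10RA, 25RA, vector) and a 1-1067 set (1-1067, 34DN, 36EQ, vector). Each condition had 1 library, so nothing below has a replicate check within a condition. The sets and the ChIP targets were separate batches per the labels, so construct, antibody, method and batch cannot be told apart across them. The lists held 3632 to 33909 peaks each and reached a p of 0.001 with no q threshold. In 3 of the lists (25RA, 34DN, 36EQ) the names given to single peaks do not repeat the sample's title, and the title was followed. The labels name BAP1 or ASXL1 antibodies in one place and an HA tag antibody in another. Peak lists hold no expression values, so the labelled cell type was not checked against markers.

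BAP1 is a deubiquitinase that removes ubiquitin from H2AK119, and ASXL1 is its activating partner. The mark itself is written by Polycomb repressive complex 1 and is known for covering CpG-rich promoters of silent genes. Unplaced sequences are pieces of an assembly that belong to the species but to no known chromosome, and unlocalized sequences are assigned to a chromosome without a position on it. Such pieces are rich in duplicated genes and satellite DNA, which assemble poorly. Where an assembly holds fewer copies of a repeat than the cells do, reads from all copies align to the few that are present, whatever the antibody; whether that happened here was not tested.

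The sequences that carry the result are shown first, each as 151 bases of a region listed in all 12 libraries. The window is centred on the summit of the peak with the best rank by p within its own list, which need not be the tallest, and ties between libraries were settled by their order in the files. They are 6 of the most widely listed regions, from the 2 sequences with the most peaks. Capitals mark bases inside a 32-base word that also occurs on an assembled chromosome, and lower case marks bases that do not. All are read from the plus strand of GRCm39.
MU069435.1:30497-30647: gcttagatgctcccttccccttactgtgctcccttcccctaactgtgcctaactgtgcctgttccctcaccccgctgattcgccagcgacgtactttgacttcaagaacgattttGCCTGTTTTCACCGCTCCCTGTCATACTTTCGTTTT
JH584304.1:27049-27199: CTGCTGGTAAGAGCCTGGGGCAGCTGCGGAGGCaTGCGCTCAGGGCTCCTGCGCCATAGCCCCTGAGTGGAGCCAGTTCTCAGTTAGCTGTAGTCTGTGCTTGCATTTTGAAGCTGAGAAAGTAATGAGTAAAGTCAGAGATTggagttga
JH584304.1:31516-31666: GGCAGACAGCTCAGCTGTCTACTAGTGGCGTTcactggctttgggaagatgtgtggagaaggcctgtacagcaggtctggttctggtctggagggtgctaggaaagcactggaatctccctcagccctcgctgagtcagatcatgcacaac
JH584304.1:53878-54028: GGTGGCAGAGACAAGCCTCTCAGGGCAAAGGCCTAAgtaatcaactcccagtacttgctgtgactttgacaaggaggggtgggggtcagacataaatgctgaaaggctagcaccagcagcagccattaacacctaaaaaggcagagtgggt
JH584304.1:2227-2377: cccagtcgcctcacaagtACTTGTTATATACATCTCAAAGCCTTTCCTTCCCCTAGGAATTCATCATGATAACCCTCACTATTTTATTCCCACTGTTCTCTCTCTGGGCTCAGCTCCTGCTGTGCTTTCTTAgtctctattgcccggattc
JH584304.1:47434-47584: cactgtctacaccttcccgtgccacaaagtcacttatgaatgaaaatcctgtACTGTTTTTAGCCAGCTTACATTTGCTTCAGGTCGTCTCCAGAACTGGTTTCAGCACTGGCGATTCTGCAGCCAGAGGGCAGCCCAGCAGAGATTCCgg

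The share of bases in capitals ran from 21.2% to 94.0% in these windows. The window with 94.0%, at JH584304.1:27049-27199, has its closest match on chromosome 11 inside Sfi1. That match is shown read from the minus strand, with capitals at the 16 bases that differ from the JH584304.1 window or are absent from it. The alignment held 89.8% identity over 17 differences, 1 of them a base present in JH584304.1 alone.
chr11:3107706-3107871: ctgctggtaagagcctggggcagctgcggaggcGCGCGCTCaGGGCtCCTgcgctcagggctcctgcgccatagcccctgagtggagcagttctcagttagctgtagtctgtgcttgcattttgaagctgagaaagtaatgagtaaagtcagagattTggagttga

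The peaks were concentrated on a few sequences. Of the 39 sequences that are not chromosomes, 18 carried a peak, 12 of them unplaced and 6 unlocalized. JH584304.1, an unplaced sequence of 114452 bases, held 380 peaks in 44 regions. MU069435.1, unplaced and 31129 bases long, held 145 peaks in 11 regions. Together they made up 3.11% of the bases of the 39 sequences and held 525 of the 650 peaks, or 80.8%. The regions merged over all 12 libraries covered 48.9% of MU069435.1 and 29.8% of JH584304.1.

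Both sequences had peaks in every library. JH584304.1 carried 33, 37, 47 and 44 peaks in BAP1 1-590, BAP1 10RA, ASXL1 1-590 and ASXL1 10RA. In H2AK119ub it carried 30, 29, 30 and 21 peaks in 1-590, 10RA, 25RA and vector of the 1-590 set. The 1-1067 set had 26, 27, 31 and 25 peaks there in 1-1067, 34DN, 36EQ and vector. All 4 ChIP values lay above the 8 H2AK119ub values. These are counts, from whole lists of 3632 to 8461 peaks in ChIP and 5351 to 33909 in H2AK119ub. On MU069435.1 the counts were 10, 13, 12 and 13 in the ChIP libraries, 13, 11, 11 and 8 in the 1-590 set and 15, 13, 13 and 13 in the 1-1067 set, in the same order, and the assays overlapped.

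The other 16 sequences with a peak held 125 peaks in 56 regions. Of these peaks 91 were from ChIP libraries and 34 from H2AK119ub libraries. Over the whole lists, 21701 peaks were from ChIP and 138503 from H2AK119ub libraries. Each ChIP library had 17 to 32 peaks on the 16 sequences and each H2AK119ub library 1 to 6, so the counts of the assays did not overlap. On 11 sequences all peaks were from ChIP libraries. Of the 16, 5 met the rule of a peak in at least 6 libraries: MU069434.1, GL456239.1 and GL456211.1 of chromosome 1, GL456233.2 of chromosome X, and the unplaced GL456392.1.

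**Figure D1:**
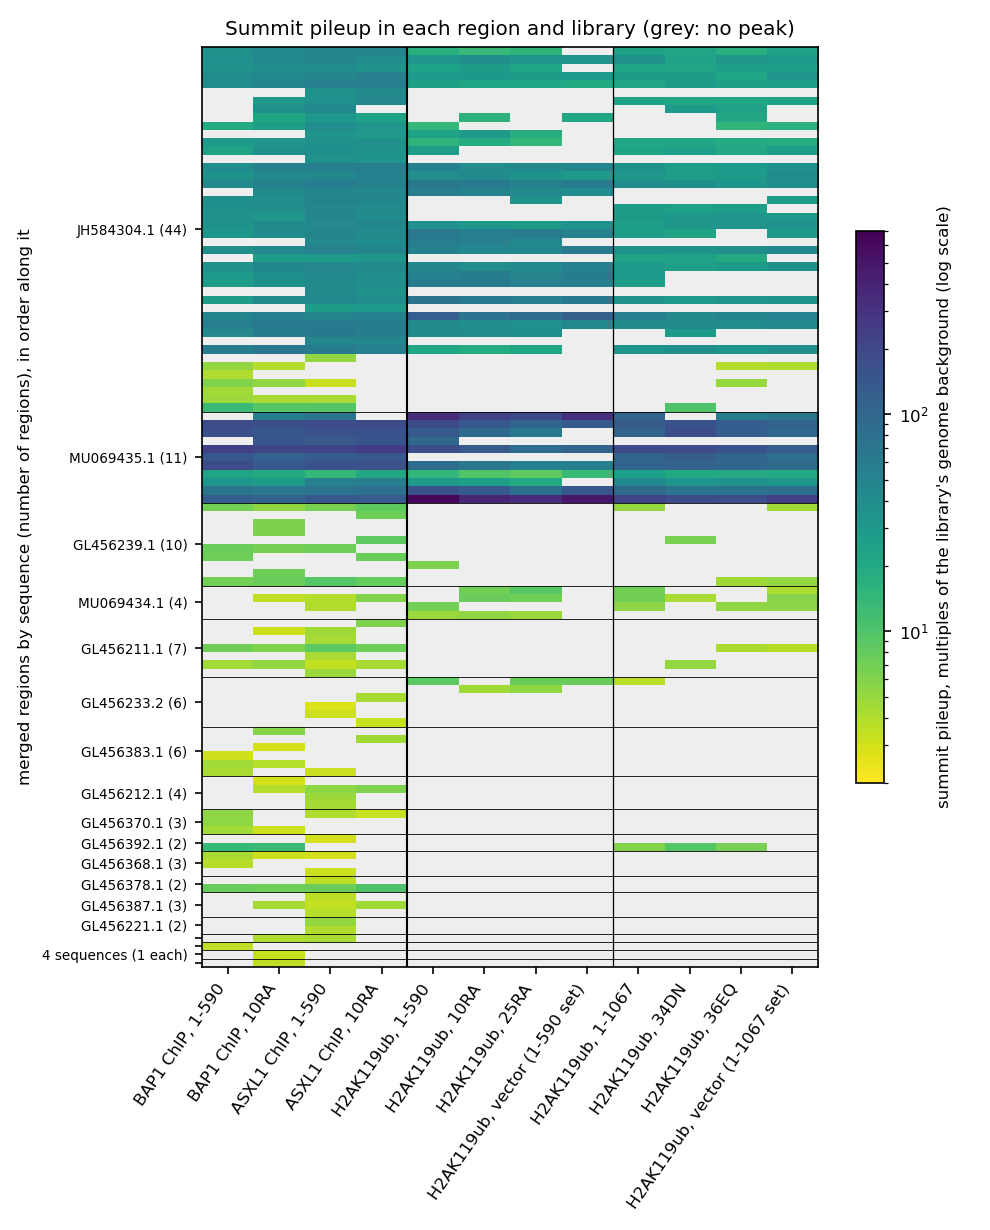
Summit pileup of each merged region (rows, grouped by sequence and in order along it) in each library (columns), as multiples of that library's genome background on a log colour scale; grey means no peak. All 11 rows of MU069435.1 and 35 of the 44 rows of JH584304.1 are filled in both assays, and most rows of the other sequences are filled in ChIP libraries alone.

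Most regions of JH584304.1 had a counterpart on chromosome 11. A counterpart was a 4 kb window holding at least 25% of a region's 32-base words. It was found for 32 regions, from base 200 to 55273 of JH584304.1, within chr11:3079395-3134127. Along JH584304.1 the counterparts ran in the opposite direction in all 31 steps from one region to the next. Alignment of each region to its counterpart gave a median identity of 97.3%, from 77.1% to 99.2%. The counterpart lay in Sfi1 (chr11:3081840-3143480, minus strand) for 31 of the 32 regions and reached an exon of it for 18. Sfi1 encodes a centrin-binding protein of centrioles, and the last counterparts reach the pseudogene Pisd-ps1 (chr11:3076006-3081004). The annotation used here covers the chromosomes, so genes on JH584304.1 itself were not analysed here.

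The copies differed in how often they were listed. In the JH584304.1 stretch of 55.1 kb the 12 libraries listed 299 peaks, from 17 to 37 per library. In the chromosome 11 span of 54.7 kb they listed 23 peaks, from 1 to 4 per library. Counted by region, the 32 regions had 267 listings, a listing being 1 region in 1 library, and 10 of them were in all 12 libraries. Their counterparts had 8 listings, all in libraries that also listed the region, and 28 of the 32 counterparts had none. The regions were taken for their peaks on JH584304.1 and the counterparts were not, so the regions had to be listed more often, and these counts are a description. A chromosomal region within the span, listed in all 12 libraries, lay in none of the 32 counterparts. Over the whole spans, each library listed more peaks on the JH584304.1 copy than on the chromosome 11 copy. How the authors treated reads that align equally well to both is not given in the sources used here.

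**Figure D2:**
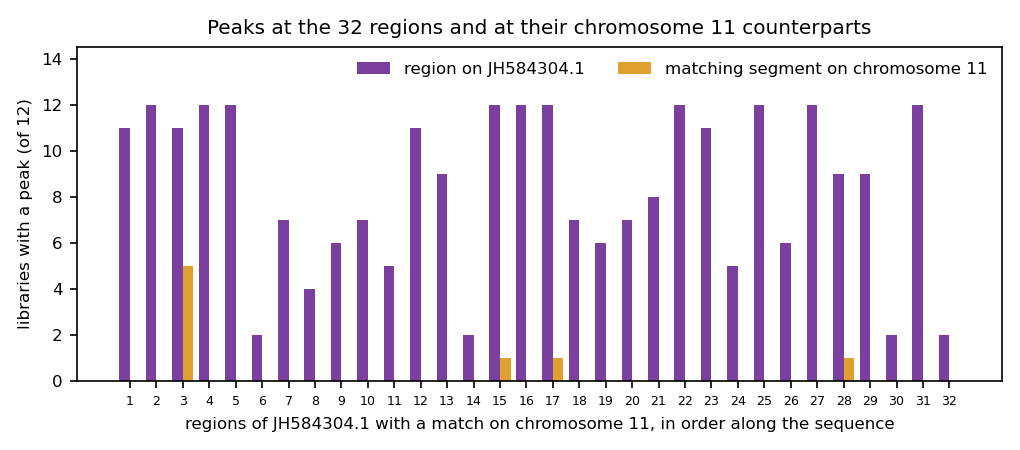
Number of libraries (of 12) with a peak at each of the 32 JH584304.1 regions with a chromosome 11 counterpart, in order along JH584304.1 (left bars), and at that counterpart (right bars). The left bars reach 12 at 10 regions, and 28 counterparts have no bar.

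JH584304.1 changed in character along its length. Its first 37 regions, up to base 68516, held 362 of its peaks, and their median local background was 12.8 multiples of the genome background. The local background is the fragment number that the peak caller expected at a summit, recovered here from fold and p, and the genome background is the lowest such value in a library. The last 7 regions, from base 73122 to 104028, held 18 peaks with a median local background of 1.00. Of those 18 peaks 14 were from ChIP libraries. Words of these last regions had a median of 8 copies in the assembly, and 5 of the 7 had a counterpart near the start of chromosome 9, between bases 3000007 and 3035912. These matching windows were much longer than the regions and 4 of the 5 overlapped one another, so their peaks were not compared with those of the regions. The region at JH584304.1:103286-104028 repeated itself at a step of 234 bases over 92.7% of its length, which is the known unit length of mouse major satellite, the repeat of pericentric heterochromatin.

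The order of the libraries by summit pileup differed between regions of JH584304.1. At JH584304.1:26818-27494, a region in all 12 libraries, the pileup was 40.8, 51.3, 57.1 and 57.3 multiples of the genome background in BAP1 1-590, BAP1 10RA, ASXL1 1-590 and ASXL1 10RA. In H2AK119ub it was 52.9, 41.8, 42.5 and 48.5 in 1-590, 10RA, 25RA and vector of the 1-590 set. In the 1-1067 set it was 35.5, 27.8, 29.2 and 36.0 in 1-1067, 34DN, 36EQ and vector. The 1-1067 set was lowest throughout, and the ChIP libraries overlapped the 1-590 set. At JH584304.1:52664-54440 the 1-590 set was highest, with 73.8, 61.0, 55.4 and 66.1 in the same order, against 27.8 to 45.7 in the ChIP libraries and 30.2 to 34.6 in the 1-1067 set.

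MU069435.1 had the highest pileups and the highest local background. Its median local background was 43.9 multiples of the genome background, against 12.4 on JH584304.1. Nearly no counterpart was found for it: 1 of 11 regions passed the 25% rule. Instead it repeated itself, since 54.0% of its 32-base words occurred more than once within it, most often 6767 bases apart. This repetition did not go with the tall regions. Single-copy words made up 84.4% of the region at bases 29693 to 31118 and 64.3% of that at 8786 to 11025. Words with further copies were most frequent at 19705 to 20358 and 20784 to 21449, with 95.7% and 92.7%. The median local background there was only 2.32 and 1.68. At MU069435.1:8786-11025 the pileup was 232, 206, 204 and 242 multiples of the genome background in BAP1 1-590, BAP1 10RA, ASXL1 1-590 and ASXL1 10RA. The H2AK119ub libraries of the 1-590 set had 172, 134, 90.4 and 110, and those of the 1-1067 set 180, 178, 162 and 131, in the order given above. All 4 ChIP values were the highest there.

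The region at the end of MU069435.1 had the opposite order. At MU069435.1:29693-31118, which includes the first printed window, the pileup was 626, 377, 332 and 479 multiples of the genome background in 1-590, 10RA, 25RA and vector of the 1-590 set. It was 221, 181, 176 and 230 in 1-1067, 34DN, 36EQ and vector of the 1-1067 set. BAP1 1-590, BAP1 10RA, ASXL1 1-590 and ASXL1 10RA had 123, 107, 141 and 130. The groups did not overlap, and each vector library lay within the range of its set or, in the 1-1067 set, above it. This region held 68 CpG dinucleotides, and its ratio of observed to expected CpG was 0.80, against a median of 0.22 over the 111 regions.

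A further CpG-dense region lay at the start of MU069435.1, at bases 11 to 1178, with 150 CpG dinucleotides and 68.2% G and C. It was listed in all 4 libraries of the 1-590 set, with pileups of 331, 224, 188 and 314 multiples of the genome background in 1-590, 10RA, 25RA and vector. In the 1-1067 set 3 of 4 libraries listed it, at 108, 59.4 and 71.3 in 1-1067, 36EQ and vector. Of the ChIP libraries 2 listed it, at 60.0 in BAP1 10RA and 74.3 in ASXL1 1-590. This region was singled out after its values were seen.

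By the authors' fold over local background, the strongest peak on these sequences lay in 1 region in 10 of the 12 libraries, at MU069435.1:20784-21449. Its fold reached 29.6 in ASXL1 1-590 and 26.0 in ASXL1 10RA, where it ranked 3 and 5 in the whole list by p. The BAP1 libraries gave 13.4 with 1-590 and 15.3 with 10RA. The 6 H2AK119ub libraries in which it led gave folds of 14.9 to 17.7. The local background there was 1.68 multiples of the genome background in the median, while 9 of the 11 regions of the sequence had 26.3 to 101. The summit pileup of this region was not tall for the sequence. It ran from 19.4 multiples of the genome background in 25RA to 57.6 in ASXL1 10RA. The library medians over all peaks of MU069435.1 were 82.8 to 151. The high fold thus went with a low local background. In 25RA and the vector of the 1-590 set the strongest peak was instead at bases 29907 to 31117 and 29974 to 31117, with folds of 13.4 and 13.1 and rank 1 in each list.

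MU069434.1, of 8412 bases, had 16 of its 20 peaks from H2AK119ub libraries. Its 4 regions matched chr1:88202164-88205301 with 97.4% to 98% identity, inside Hjurp (chr1:88186586-88205405), the chaperone that loads the centromeric histone CENP-A. No library listed a peak at any of the 4 counterparts. The regions were taken for their peaks and the counterparts were not, so this is a description. The region at bases 4623 to 5050 was listed in 4 H2AK119ub and no ChIP library, and that at 5325 to 5774 in 5 H2AK119ub and 3 ChIP libraries. The region at 7448 to 7754, with 30 CpG dinucleotides and 64.8% G and C, was listed in 1-590, 10RA and 25RA at 4.86, 5.23 and 4.84 multiples of the genome background, and in no other library. These pileups were far below those of MU069435.1. In fragments, the genome background was 2.06, 1.72 and 1.86 in 1-590, 10RA and 25RA and 0.908 in the vector library of that set. Whether this lower depth accounts for the missing peak in that vector library was not tested.

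GL456239.1, of 40056 bases, carried 28 peaks, 22 of them from ChIP libraries. Its words were mostly single copy, and no region had a counterpart. Its regions at bases 207 to 1688 and 37852 to 39835 were each listed in all 4 ChIP libraries and in 2 libraries of the 1-1067 set. GL456211.1, of 241735 bases, carried 19 peaks, 16 from ChIP libraries, and 4 of its 7 regions had a counterpart. At GL456392.1:22488-23135 the pileup was 13.7 and 13 multiples of the genome background in BAP1 1-590 and BAP1 10RA, and 6.0, 9.28 and 6.68 in 1-1067, 34DN and 36EQ, with no peak in the ASXL1 libraries. GL456233.2, the longest of the 18 at 559103 bases, carried 10 peaks, and none of its 6 regions was listed in both assays.

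Satellite-like repetition marked a minority of the regions. A region was called repetitive if at least 50% of its bases recurred at 1 step between 20 and 500 bases. This held for 22 of the 111 regions. In 7 of them the step was 21 bases, all on GL456239.1, GL456387.1 and GL456394.1, and in the other 15 it ran from 42 to 234 bases. The 22 regions carried 59 peaks, 42 from ChIP libraries, and their median local background was 1.00. The 89 regions without such repetition carried 591 peaks, with a median of 12.9.

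Around the summits, sequence was more often duplicated than at chromosomal peaks as a whole, but not than at the chromosomal regions listed in every library. In the 101 bases around each summit, the median 32-base word had at least 2 copies in the assembly for 196 of 650 peaks, or 30.2%. On the chromosomes this held for 3.64% of 159554 peaks, with 9.54% in ChIP and 2.72% in H2AK119ub libraries. Among peaks of the chromosomal regions listed in all 12 libraries it held for 27.2%, close to the members' share. It was 28.9% on JH584304.1, 37.2% on MU069435.1 and 25.6% on the other 16 sequences. These shares are descriptions over peaks, which share regions and libraries, and were given no test.

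As a share of a library's peaks, members were more frequent in ChIP than in H2AK119ub. They made up 1.65% and 1.48% of the BAP1 lists with 1-590 and 10RA, and 1.08% and 1.63% of the ASXL1 lists. In the 1-590 set of H2AK119ub the share was 0.144%, 0.156%, 0.136% and 0.149% in 1-590, 10RA, 25RA and vector. In the 1-1067 set it was 0.739%, 0.822%, 0.783% and 0.760% in 1-1067, 34DN, 36EQ and vector. The 3 groups did not overlap, and within a set the vector library did not stand apart.

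The mean share was 1.46% ± 0.267 (SD, n = 4) in ChIP and 0.461% ± 0.338 (n = 8) in H2AK119ub, a difference of 0.997 percentage points with an adjusted p of 0.00673 (two-sided exact permutation test, Benjamini-Hochberg over 5 tests). Within H2AK119ub, the 1-1067 set had 0.776% ± 0.0355 (n = 4) and the 1-590 set 0.146% ± 0.00837 (n = 4), with an exact permutation p of 0.0286, the smallest that 4 against 4 allows, and 0.0286 after adjustment. The libraries stand in for replicates here and carry different constructs. Libraries of the same batch are not independent, and the groups compared are different batches. These p-values therefore cannot tell assay or set from batch. List length moved with the shares: the 1-590 set had 20154 to 33909 peaks per list, the 1-1067 set 5351 to 6357 and ChIP 3632 to 8461. The number of members varied less, from 30 to 47 in the 1-590 set, 44 to 48 in the 1-1067 set and 60 to 91 in ChIP. Among the 3000 peaks with the lowest p of each library the difference between assays was 1.16 percentage points and that between sets 0.458. Among peaks with q of 0.05 or less they were 7.89 and 2.35 percentage points, and by bases covered 2.28 and 1.34.

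**Figure D3:**
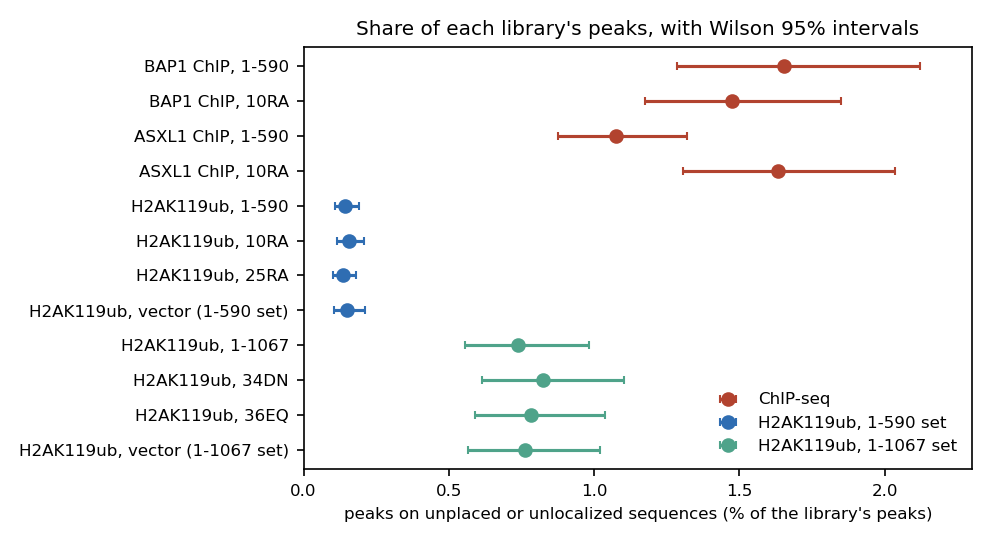
Percent of each library's peaks on unplaced or unlocalized sequences (x axis), with Wilson 95% intervals that cover counting error only. The 4 ChIP libraries lie between 1.08% and 1.65%, the 1-1067 set near 0.776% and the 1-590 set near 0.146%.

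Members were wider than chromosomal peaks of the same library. The mean of the libraries' median widths was 436 ± 66.5 bases for members and 282 ± 38.7 for chromosomal peaks (SD, n = 12). The difference of 155 bases had the same sign in 12 of 12 libraries, with an adjusted p of 0.00122 (two-sided exact paired permutation test over libraries, with 0.000488 before adjustment, the smallest it can give). Per library the median width of members was 508, 506, 384 and 370 bases in BAP1 1-590, BAP1 10RA, ASXL1 1-590 and ASXL1 10RA. In H2AK119ub it was 413, 402, 379 and 366 in the 1-590 set and 396, 459, 493 and 563 in the 1-1067 set, in the order given above. The widest member spanned 2857 bases, in BAP1 1-590.

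The local background differed as well. Its median was 12.2 ± 1.86 multiples of the genome background at members and 1.60 ± 0.537 at chromosomal peaks (mean and SD of 12 libraries). The ratio was 7.94-fold, higher in 12 of 12 libraries, with an adjusted p of 0.00122 by the same exact permutation test. Peaks per Mb were 11.6 ± 3.71 on the 39 sequences and 5.02 ± 4.48 on the chromosomes. The mean ratio was 3.11-fold with an adjusted p of 0.00977 by the same exact permutation test, and it was above 1 in 8 of 12 libraries. The 4 exceptions were the libraries of the 1-590 set, whose lists were longest. Among the 3000 peaks with the lowest p of each library the ratio was 8.73-fold and above 1 in 12 of 12 libraries. It was 8.92-fold among peaks with q of 0.05 or less and 5.62-fold by bases covered.

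These differences rested on JH584304.1 and MU069435.1. Without both, the median width differed by 33.5 bases (exact permutation p = 0.0537, unadjusted), the local background was 0.692-fold that of chromosomal peaks (exact permutation p = 0.00146, unadjusted) and the density 0.426-fold (exact permutation p = 0.0942, unadjusted). On the other sequences the local background was below that of chromosomal peaks in 11 of 12 libraries. The density there went opposite ways by assay. It was 3.75 to 7.05 peaks per Mb in the 4 ChIP libraries, each above its chromosomal value of 1.35 to 3.16. In the 8 H2AK119ub libraries it was 0.220 to 1.32, each below its chromosomal value of 2.0 to 12.8. In the medians of the libraries, JH584304.1 had 9.17 to 16.1 multiples of the genome background, MU069435.1 24.3 to 83.8, the others 1.00 to 1.14 and the chromosomes 1.08 to 2.57. Median width ran from 315 to 567 bases on JH584304.1 and from 505 to 744 on MU069435.1. It ran from 242 to 446 on the other sequences and from 203 to 344 on the chromosomes. In ChIP the local background of MU069435.1 was 63.4 to 83.8 and in H2AK119ub 24.3 to 58.0, with no overlap.

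**Figure D4:**
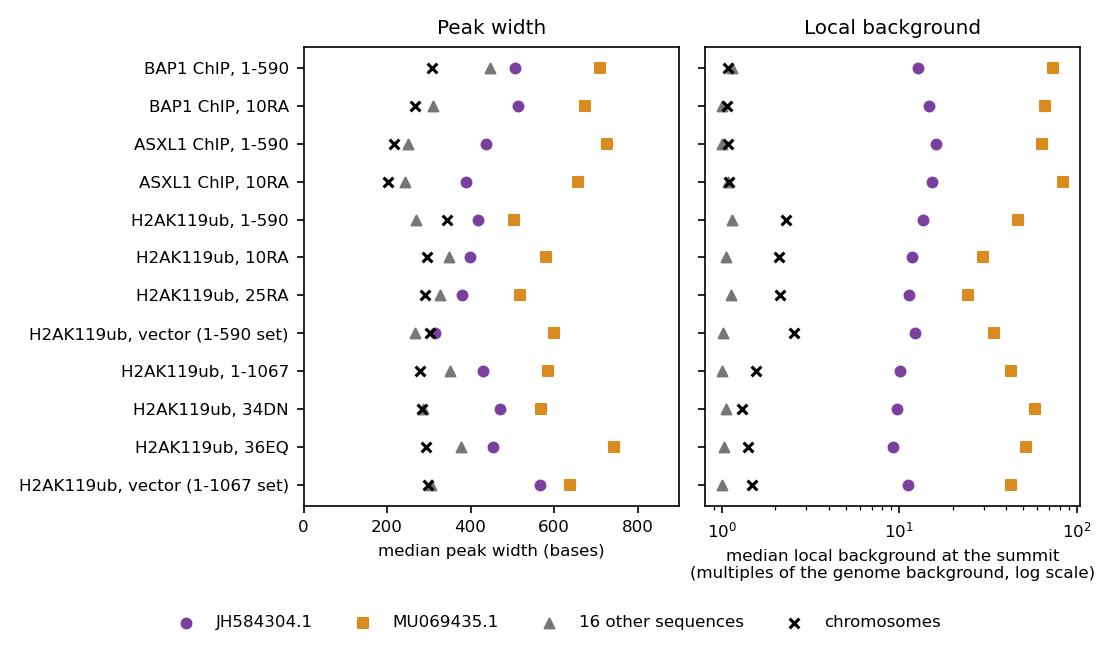
Median peak width in bases (left) and median local background at the summit in multiples of the genome background, on a log axis (right), for each library (rows), shown for JH584304.1, MU069435.1, the 16 other sequences with a peak and the chromosomes. MU069435.1 lies highest on both axes in all 12 libraries, and the other sequences lie near the chromosomes in width and at about 1 in background.

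Members were shared between assays far more often than other peaks. Of the 300 ChIP members, 218 met an H2AK119ub peak, or 72.7% (Wilson 95% interval 67.4% to 77.4%), where 6.24% of all ChIP peaks did. Of the 350 H2AK119ub members, 335 met a ChIP peak, or 95.7% (93.1% to 97.4%), where 1.24% of all H2AK119ub peaks did. The intervals cover counting error only, and the same regions recur across the pooled libraries, so they are too narrow as a measure of spread. Per library the share ran from 65.9% in ASXL1 1-590 to 76.3% in ASXL1 10RA among the ChIP libraries. Among the H2AK119ub libraries it ran from 91.3% in 25RA to 100% in 34DN and 36EQ. Among peaks with the caller's q of 0.05 or less, 79.3% of ChIP members met an H2AK119ub peak of any q, against 23.8% of all such ChIP peaks. For H2AK119ub members the share was 96.1%, against 1.32% of all such peaks. Overlap favours wide peaks in crowded stretches, and the members were both wider and more crowded; its part in these shares was not tested. Without JH584304.1 and MU069435.1 the shares were 28.6% for ChIP members and 58.8% for H2AK119ub members.

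Counted as merged regions, 54 of 111 (48.6%) were listed in at least 1 ChIP and 1 H2AK119ub library, against 0.737% of all 106862 regions. Another 52 (46.8%) were listed in ChIP alone, against 18.7% of all regions. In H2AK119ub alone 5 (4.50%) were listed, against 80.5% of all regions. JH584304.1 and MU069435.1 held 46 of the 54 shared regions, 11 of 11 on MU069435.1 and 35 of 44 on JH584304.1. The 52 ChIP-only regions had a median width of 254.5 bases, against 775.5 for the shared ones. Merging the peaks of more libraries widens a region by itself. The median width of the single peaks was 254.5 bases in ChIP-only and 478 in shared regions. The median local background of these peaks was 1.00 against 13.3. The 5 H2AK119ub-only regions lay on MU069434.1, GL456233.2 and GL456239.1, with a median G and C content of 51.6%, against 44.5% in shared and 41.6% in ChIP-only regions.

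Of the 111 regions, 18 were listed in all 12 libraries, where 0.0328% of all regions were. They were 12 regions of JH584304.1 and 6 of MU069435.1. The chromosomes had 17 such regions among 106751, so 51.4% of the regions listed in every library lay on sequences that make up 0.176% of the reference. Another 7 member and 5 chromosomal regions were listed in 11 libraries. At the other end, 31.5% of member regions and 76.1% of chromosomal regions were listed in 1 library.

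**Figure D5:**
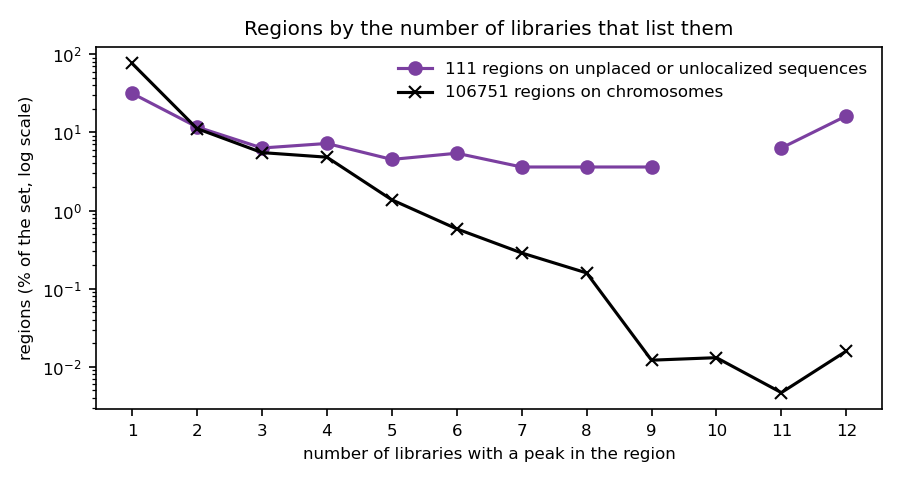
Percent of the 111 member regions and of the 106751 chromosomal regions (y axis, log scale) by the number of libraries that list a region (x axis); no member region was listed in exactly 10. Member regions rise again to 16.2% at 12 libraries, where the chromosomal regions are at 0.0159%.

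Several of the 17 chromosomal regions lay beside the counterparts described above. One at chr11:3122290-3122876 lay in Sfi1, within the span that matches JH584304.1, and one at chr11:3134229-3136269 began just past the upper end of that span. Another lay beyond it at chr11:3144652-3146880, at Drg1, with local backgrounds of 14.4 and 20.5 multiples of the genome background at these last regions. On chromosome 1, chr1:88196108-88197936 in Hjurp and chr1:88205852-88208289 at Trpm8 lay on either side of the span that matches MU069434.1. The highest local backgrounds of the 17 were 45.6 and 48.0, at the ribosomal RNA gene Rn18s-rs5 on chromosome 17, which is in the range of MU069435.1. The genes were named after the values were seen.

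The summits of different libraries lay further apart in the 18 regions than in the 17 chromosomal regions. For each pair of libraries, the distance was taken between their nearest summits in a region. Between a ChIP and an H2AK119ub library its median was 91.5 bases, against 76.5 in the chromosomal regions. Between ChIP libraries the median was 65.5 bases, against 60.0, and between H2AK119ub libraries 66.0 against 48.0.

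Between conditions of the same batch, the members were mostly the same regions. BAP1 with 10RA and with 1-590 listed 77 member regions, of which 62.3% were in both lists, against 2.28% of all regions of these lists. For ASXL1 10RA and 1-590 it was 62.5% of 88, against 2.11%. In the 1-590 set of H2AK119ub, 10RA and 1-590 shared 76.7% (24.6% of all regions), 25RA and 1-590 79.1% (26.6%), and 25RA and 10RA 92.3% (22.8%). With the vector library of that set, 1-590 shared 60.0% (26.1%), 10RA 63.2% (22%) and 25RA 61.5% (22.9%). The genome background of 1-590, 10RA and 25RA was 2.27, 1.90 and 2.05 times that of this vector library. Among the pairs without vector that ratio was 0.836 to 1.08. The part of this depth difference in the lower shares was not tested. The vector library listed 25 member regions, and 24 of them were also in each of the other 3 lists.

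In the 1-1067 set, 34DN and 1-1067 shared 73.3% of their member regions (6.25% of all regions), 36EQ and 1-1067 70.2% (7.55%), and 36EQ and 34DN 69.6% (6.91%). The vector library shared 75.6% with 1-1067 (6.21%), 63.8% with 34DN (5.64%) and 75.6% with 36EQ (5.83%). No pair of conditions was tested, with 1 library each, and these pairs share libraries.

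A few regions separated the H2AK119ub sets. In all, 3 were listed in all 4 libraries of the 1-1067 set and none of the 1-590 set, at JH584304.1:13395-13709, JH584304.1:37046-37396 and MU069435.1:11437-12282. Another was listed in all 4 of the 1-590 set and none of the 1-1067 set, at JH584304.1:33932-34591. That region had 35 CpG dinucleotides and 56.8% G and C, while the other 3 had 35.2% to 43.0% G and C. All 4 were also listed in 3 or 4 ChIP libraries. Over the 59 regions with any H2AK119ub peak, 37 were in both sets, 15 in the 1-1067 set alone and 7 in the 1-590 set alone. The same split was not counted over all regions, so these counts are a description. List length also differed, with 20154 to 33909 peaks in the 1-590 set and 5351 to 6357 in the 1-1067 set. Set and batch cannot be told apart here.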

How the data were processed

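ChIP-seq and CUT&RUN peak lists of 12 libraries were used, 1 per condition, grouped by the sample titles. The authors used MACS3 3.0.3 and Bowtie2 2.5.4 with the mm39 build, besides Picard, SAMtools and fastp 0.24.0, according to the submitters' processing notes. The deposited files give, per peak, a fold over local background (a ratio), −log10 p and −log10 q, and a score, all made within each library by the authors' caller. In 160194 of 160204 peaks the deposited score equals 10 times −log10 p with its decimals dropped. E. coli spike-in normalization is named for CUT&RUN, per the labels. The use of a control library and the treatment of reads with several alignments are not given in the sources used here.

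Whole summit pileups were recovered from the deposited fold and −log10 p for 100% of peaks (tolerance 0.01), and the local background with them. Peaks were ranked by fold or −log10 p only within a list. Folds printed beside each other are those of each list and were not put on a common scale. Regions were merged at an overlap of 1 base. Sequence was read from the GRCm39 reference with pysam 0.24.0, 32-base words were counted on both strands with numba 0.67.0, and windows of 4 kb were searched using words with up to 500 chromosomal copies. Regions were aligned with edlib 1.3.9.post1, and genes were those of GENCODE vM39. Tests were exact permutations over libraries (scipy 1.17.1), with Benjamini-Hochberg adjustment over 5 tests. Overlaps were checked against bedtools 2.31.1 on simulated data, as were the recovery, the word counts and the tests.

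The members, tests and lists were chosen with earlier results of these data known. Named sequences had a peak in at least 6 libraries. Named regions were 10 of the 18 listed in all 12 libraries, those with the lowest sum of ranks by p, and the strongest by fold per library. The sum ran over every peak, so regions called as several peaks in a library got a higher sum. Printed windows were the first 6 of the named regions with both leading sequences included. Windows that share words with 1 chromosome not printed here were left out. The Sfi1, Hjurp and other chromosomal matches and the CpG-dense regions were looked at after the values were seen. Alternatives were the q threshold, list length, the kind of sequence, the overlap rule, bases in place of peaks and leaving out each library.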

Additional observations from a re-analysis of the deposited data

How the results depend on the processing

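Across the alternatives run, the share of members in ChIP stayed above that in H2AK119ub, and that in the 1-1067 set above that in the 1-590 set, in all of them. On unlocalized sequences alone the difference in median width was 30.8 bases (exact permutation p = 0.315), the log2 ratio of peaks per Mb 0.30 (p = 0.604, by the same permutation test, with the length of those sequences that carry a peak), and the log2 ratio of the local background -0.42. There, 44.4% of ChIP members and 54.8% of H2AK119ub members met the other assay, and 7 of 33 regions were in both. On unplaced sequences alone these shares were 78.9% and 99.7%. Without JH584304.1 and MU069435.1, an alternative chosen after seeing the data, the difference in width was 33.5 bases, the log2 ratios of peaks per Mb and of the local background were -1.23 and -0.53, the shares were 28.6% and 58.8%, and 8 of 56 regions were in both. Regions within 1 kb joined gave 69 regions, 29 in both.

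Leaving out each library in turn gave differences of 0.933 to 1.12 percentage points between assays and 0.615 to 0.642 between sets, where 3 against 4 libraries cannot go below an exact p of 0.0571. It gave 145 to 163 bases in width, log2 ratios of 1.49 to 1.82 for peaks per Mb and 2.92 to 3.04 for the local background, shares of 70.0% to 75.6% and 94.6% to 96.4%, 97 to 112 regions and 52 to 55 in both. Cause was not tested for any of these. No paired analysis was possible because the labels carry no replicate numbers and each condition has 1 library, as far as pairing of conditions by replicate goes. The paired tests of width, background and density set 2 values of the same library side by side. The p-values measure the spread between libraries of different conditions.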
